A study of Mus musculus with 2 samples.

Results

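Clustered histone genes were described in bone marrow derived macrophages of mice, on 1 control array and 1 array whose sample is labelled beta-catenin deficient. The members were the rows of the deposited table whose annotated symbols were all symbols of the histone gene clusters and of the H1 family, by name alone (H1f, H2ac, H2bc, H2bu, H3c or H4c followed by a number, or an older Hist1, Hist2 or Hist3 name). They were 49 of the 25917 rows, 32 with a single symbol and 17 with several. Both samples have an age of 8 weeks, and in both the marrow cells grew with conditioned medium of the fibroblast line L929. Biotin-labelled total RNA was measured on Affymetrix arrays. The deficient sample is described only by its loss of beta-catenin, the transcriptional co-activator of Wnt signalling. The sources used here do not give the Cre or allele, the strain or the number of animals.

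Nucleosomes hold pairs of the core histones H2A, H2B, H3 and H4, and a linker histone of the H1 family binds the DNA that enters and leaves them. Most core histone genes lie in clusters in many near-identical copies, are transcribed in S phase when new chromatin is made, and give short mRNAs without introns that end in a stem-loop in place of a poly(A) tail. Their mRNA is degraded when replication ends. Macrophages grown from bone marrow proliferate in response to macrophage colony-stimulating factor, which L929 cells secrete.

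Values are RMA values on a log2 scale, and every difference is the array labelled deficient minus control. With 1 array per group there is no replicate error and no test, so higher and lower describe these 2 arrays only. Beta-catenin's own gene, Ctnnb1, had a value of 11.29 in control and 11.44 in the array labelled deficient. The label was therefore not borne out by that row, although probes outside the deleted exons would check nothing, and every direction below rests on the label. The median of all rows was 7.31 in control and 7.24 in the array labelled deficient, and the median difference over all rows was -0.17. Dim rows differed more: the median difference was -0.49 over the 2725 rows with a mean value under 5 and -0.01 over the 933 rows between 11 and 12. It was -0.06 over the 519 rows between 12 and 13 and -0.11 over the 186 rows above these.

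Histone rows were lower in the array labelled deficient for most members with a single symbol. Of these 32, 26 had a negative difference (81.2%) and 6 a positive one, where 67.8% of all rows were negative, and their median was -0.57 beside -0.17 for all rows. At a size of 1.5-fold (0.585 on the log2 scale), 15 of 32 were lower (46.9%) and 2 were higher (6.25%). The same rule took 15.0% of all rows as lower and 4.58% as higher. At 2-fold, 9 members were lower and 1 was higher, where all rows gave 3.60% and 1.62%. Among rows with a mean at or above 7.28, the median of all values, 11 of 22 members were at least 1.5-fold lower, and 8.49% of all such rows were. After a loess curve of the difference on level was subtracted, 13 of 32 members were at least 1.5-fold lower, beside 6.64% of all rows. The share of higher members was thus near that of the table, and the share of lower members was above it.

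**Figure D1:**
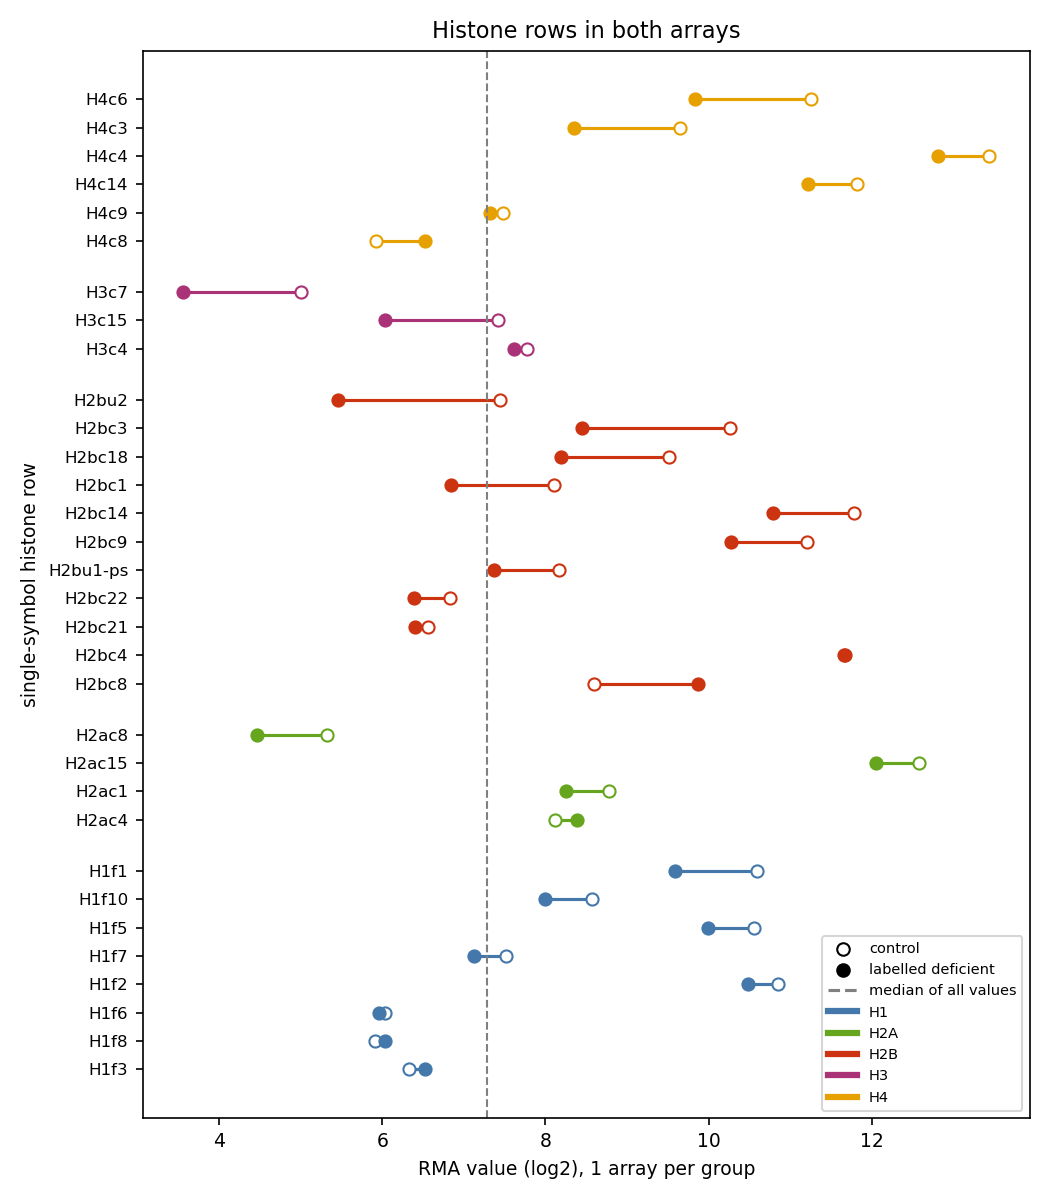
Values of the 32 single-symbol histone rows in the control array (open circles) and in the array labelled deficient (filled circles), by histone type, on the log2 RMA scale, with a dashed line at the median of all values (7.28). Filled circles lie left of open ones for 26 rows, and H2bc8 and H4c8 are the rows at least 1.5-fold higher.

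Bases before 4 gene starts are shown to compare promoter motifs, and because H2bc8 and H2ac8 start from the same short interval in opposite directions. They are from RefSeq (GRCm38.p6), 5′ to 3′ on the gene's own strand. Capitals mark the octamer ATTTGCAT, which the Oct-1 factor binds in H2B promoters, the CCAAT box and the TATA box (TATAAA), each on either strand, with no overlap between them in these sequences. H2bu2 (chr11:58948711-58948910, plus strand) and H2bc3 (chr13:23746534-23746733, plus strand) were the lowest H2B members, H2bc8 (chr13:23571221-23571399, plus strand, all 179 bases between the starts of H2ac8 and H2bc8) was the highest, and H4c6 (chr13:23551669-23551868, minus strand) was the lowest H4 member.
H2bu2: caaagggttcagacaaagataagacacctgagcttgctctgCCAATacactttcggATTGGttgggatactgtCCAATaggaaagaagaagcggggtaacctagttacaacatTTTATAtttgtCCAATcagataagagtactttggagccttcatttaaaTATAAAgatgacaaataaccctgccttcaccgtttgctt
H2bc3: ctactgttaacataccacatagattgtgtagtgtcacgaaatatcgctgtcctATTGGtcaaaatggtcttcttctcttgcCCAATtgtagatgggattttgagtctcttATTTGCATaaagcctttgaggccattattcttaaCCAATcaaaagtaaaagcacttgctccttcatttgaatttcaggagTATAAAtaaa
H2bc8: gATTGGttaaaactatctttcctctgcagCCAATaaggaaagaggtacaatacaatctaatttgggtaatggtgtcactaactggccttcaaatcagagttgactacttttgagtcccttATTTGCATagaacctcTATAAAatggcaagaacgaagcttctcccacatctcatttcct
H4c6: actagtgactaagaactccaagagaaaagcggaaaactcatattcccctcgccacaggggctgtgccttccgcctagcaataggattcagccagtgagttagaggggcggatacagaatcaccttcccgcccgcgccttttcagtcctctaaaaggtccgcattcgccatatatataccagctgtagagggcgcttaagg

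H2B genes, which encode the partner of H2A in the nucleosome, held the lowest members. Of 11 single-symbol H2B rows, 7 were at least 1.5-fold lower (63.6%), 1 was higher (9.09%) and 3 lay between, with a median of -0.93. The same rule took 15.0% of all rows as lower and 4.58% as higher. H2bu2, a gene of the small Hist3 cluster, had 7.44 in control and 5.45 in the array labelled deficient. That is 3.95-fold lower, the 51st lowest of the 25917 rows, and its second value lay below the median of all values. H2bc3, of the large Hist1 cluster, had 10.26 and 8.45, which is 3.52-fold lower and the 73rd lowest row. Unlike H2bu2 it was above the median of all values in both arrays.

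H2bc18, of the Hist2 cluster, went from 9.51 in control to 8.19 in the array labelled deficient, 2.49-fold lower. H2bc1, the H2B of the male germ line, read 8.10 and 6.84, 2.39-fold lower and below the median of all values in the array labelled deficient. H2bc14 read 11.79 and 10.80 and H2bc9 read 11.21 and 10.28, differences of -0.99 and -0.93. H2bu1-ps, an H2B pseudogene that is also of Hist3, read 8.17 and 7.37, a difference of -0.80. The remaining H2B rows did not share this size. H2bc22 differed by -0.45 and H2bc21 by -0.15, both under the median of all values in both arrays, and H2bc4 read 11.66 and 11.68.

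H2bc8 was the exception among the H2B genes. It read 8.59 in control and 9.87 in the array labelled deficient, 1.28 higher on the log2 scale or 2.43-fold, the 235th highest of all rows. Its neighbour H2ac8, an H2A gene whose start lies 180 bases from that of H2bc8 on the other strand, read 5.32 and 4.47, a difference of -0.86. After the loess curve the pair stood at 1.37 and -0.46, so H2ac8 no longer passed 1.5-fold. H2ac8 is dim in both arrays, in the range where all rows shifted lower. The testis genes H2bc1 and H2ac1 form another such pair, and both were lower, by -1.26 and -0.53. Among histone genes of the rule with a promoter sequence, 9 such overlapping opposite-strand pairs were found, and only these 2 had a single-symbol row for each gene. Genes without such a sequence could not be paired.

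H2A rows were few. The 4 single-symbol members had a median of -0.53, and H2ac8 was the only one past 1.5-fold. H2ac15 read 12.58 in control and 12.05 in the array labelled deficient, and the testis gene H2ac1 read 8.78 and 8.26. H2ac4 went the other way, from 8.11 to 8.39. None of the 4 reached 2-fold, where 3.60% of all rows were lower and 1.62% higher.

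H3 genes gave 3 single-symbol rows. H3c15, of the Hist2 cluster, read 7.42 in control and 6.03 in the array labelled deficient, and H3c7 read 5.0 and 3.56, which is 2.61-fold and 2.71-fold lower. H3c4 read 7.77 and 7.62. Their median of -1.38 was the lowest of the 5 types, but it rests on H3c15 and H3c7, each below the median of all values in at least 1 array, and it was -0.97 after the loess curve. H3c4, the member above that median in both arrays, differed by -0.16, close to the table as a whole.

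Of 6 single-symbol H4 rows, 4 were at least 1.5-fold lower (66.7%) and 1 was higher (16.7%), beside 15.0% and 4.58% of all rows. Their median was -0.62. H4c6 read 11.26 in control and 9.84 in the array labelled deficient, 2.67-fold lower. H4c3 read 9.65 and 8.35, which is 2.45-fold lower. Both lay above the median of all values in both arrays. H4c4 (13.44 and 12.81) and H4c14 (11.82 and 11.21) passed 1.5-fold narrowly, at 1.55-fold and 1.52-fold. After the loess curve H4c14 (-0.56) no longer passed, and 3 of the 6 were at least 1.5-fold lower, beside 6.64% of all rows. H4c9 differed by -0.16. H4c8 was higher, from 5.92 to 6.52 or by 0.61, and was dim in both arrays.

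Among linker histones, 1 row passed 1.5-fold. Of 8 single-symbol H1 rows this was H1f1 (12.5%, beside 15.0% of all rows), reading 10.59 in control and 9.59 in the array labelled deficient (2.01-fold lower). H1f10 (-0.58) and H1f5 (-0.56) fell just short of 1.5-fold. After the loess curve 1 of the 8 passed as well, beside 6.64% of all rows. The median of the 8 was -0.38, and that of the 5 rows with a mean at or above the median of all values was -0.56, near the -0.53 of the 3 such H2A rows. The other somatic genes of the Hist1 cluster were H1f5 (10.56 and 10.00, -0.56), H1f2 (10.85 and 10.49, -0.36) and H1f3 (6.33 and 6.53, 0.20). H1f10, a linker histone made throughout the cell cycle whose gene lies outside the clusters, read 8.57 and 7.99 (-0.58). The germ cell genes H1f6, H1f7 and H1f8 differed by -0.07, -0.39 and 0.12. H1f7, H1f8 and H1f10 carry no older cluster name in RefSeq, so the name clustered does not hold for these 3 members, and H1f0 has no single-symbol row.

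By cluster, the 23 rows with an older Hist1 name had a median of -0.53, the 4 of Hist2 a median of -0.96 and the 2 of Hist3 a median of -1.39. The Hist1 rows ran from -1.81 to 1.28 and so covered the values of Hist2 (-1.38 to -0.15). Without the 5 germ cell genes and H1f10, 14 of the 26 rows left were at least 1.5-fold lower (53.8%, beside 15.0% of all rows). Their median was -0.62, and this alternative was chosen after the data were seen.

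**Figure D2:**
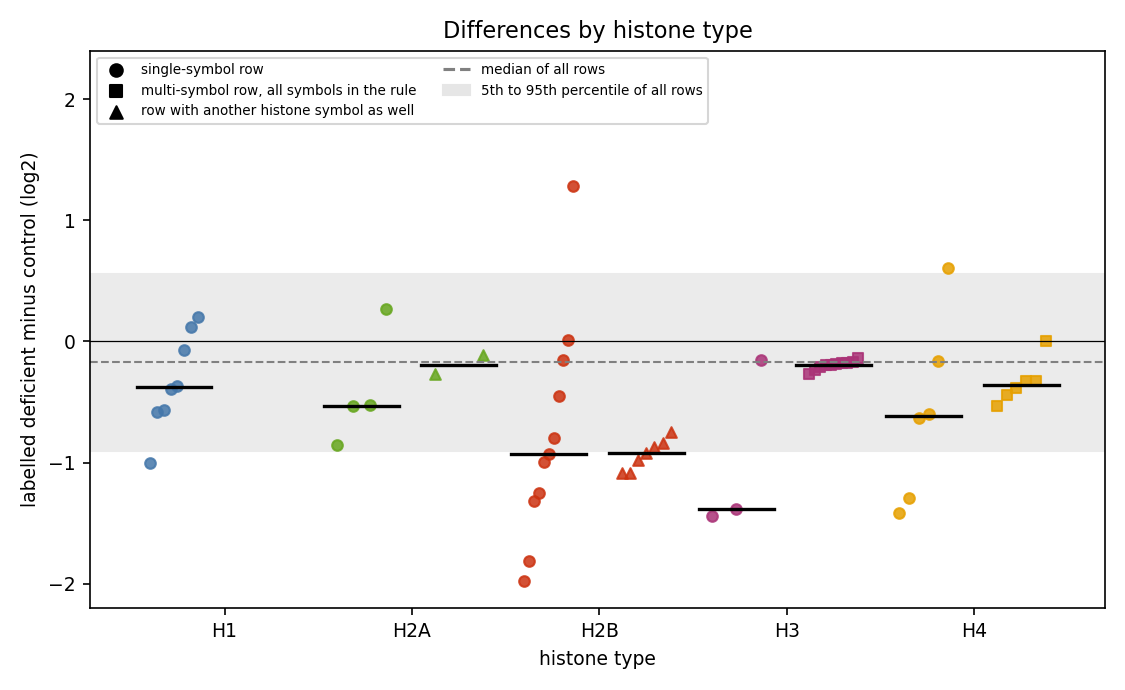
Differences (array labelled deficient minus control, log2) by histone type for single-symbol rows (circles), multi-symbol rows (squares) and rows with a further histone symbol (triangles), with black bars at each median, a dashed line at the median of all rows (-0.17) and a grey band from the 5th to the 95th percentile of all rows (-0.90 to 0.56). Single H2B rows spread from -1.98 to 1.28, the shared H2B rows lie between -1.08 and -0.75, and the shared H3 rows lie between -0.27 and -0.14. The row shared by H2bc6 and H1f4 is not drawn.

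The 17 members annotated to several histone genes, none of them to H2B genes alone, differed less than the single-symbol rows. Copies of a histone type share most of their coding sequence. Such a row thus reads a sum over copies and cannot be given to 1 gene. Whether the single-symbol rows also read other copies was not tested, so their gene names are those of the annotation. The 17 multi-symbol members had a median of -0.21, and none was 1.5-fold apart in either direction. Of these, 16 of 17 were negative, beside the 67.8% of all rows. The 10 H3 rows, each annotated to the same 12 H3 genes, lay between 13.29 and 13.57 in control and between 13.02 and 13.35 in the array labelled deficient, with differences from -0.27 to -0.14. They are near-repeats of one reading and not 10 observations. All rows of the table with a mean value of 13 or more had a median difference of -0.11. The highest value of any row in the control array was 14.11.

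The 5 H4 rows annotated to 11 H4 genes lay between 13.12 and 13.37 in control and differed by -0.53 to -0.33, and 2 of them held the same pair of values. In the array labelled deficient these 5 rows lay between 12.76 and 12.84. The single-symbol row of H4c4 read 13.44 in control and 12.81 in the array labelled deficient, near these 5 rows. Every other single-symbol H4 row read lower than these 5 rows in both arrays. A row for H4c17 and H4c11 read 6.49 in both arrays. The row shared by H2bc6 and H1f4 read 8.08 and 7.66, a difference of -0.42. In H3 and H4 the shared rows were thus closer to 0 than the single-symbol medians of -1.38 and -0.62.

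A further 9 rows held symbols of the rule beside another histone symbol, and were not members. In 7 of them the other symbol was H4bc24, which RefSeq gives to a gene with the older name Hist1h2br, and the remaining symbols were 13 or 14 H2B genes. These 7 rows read 12.83 to 13.21 in control and 11.74 to 12.29 in the array labelled deficient. Each was at least 1.5-fold lower, from -1.08 to -0.75, with a median of -0.92 beside -0.93 for the single-symbol H2B rows. Of the 7, 2 held the same pair of values. The other 2 of the 9 joined many H2A genes to H2ax and to H3c4, and differed by -0.27 and -0.11. Among rows shared by many copies, all bright, the H2B rows were therefore lower than the H4, H2A and H3 rows by value, a difference that was not tested.

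**Figure D3:**
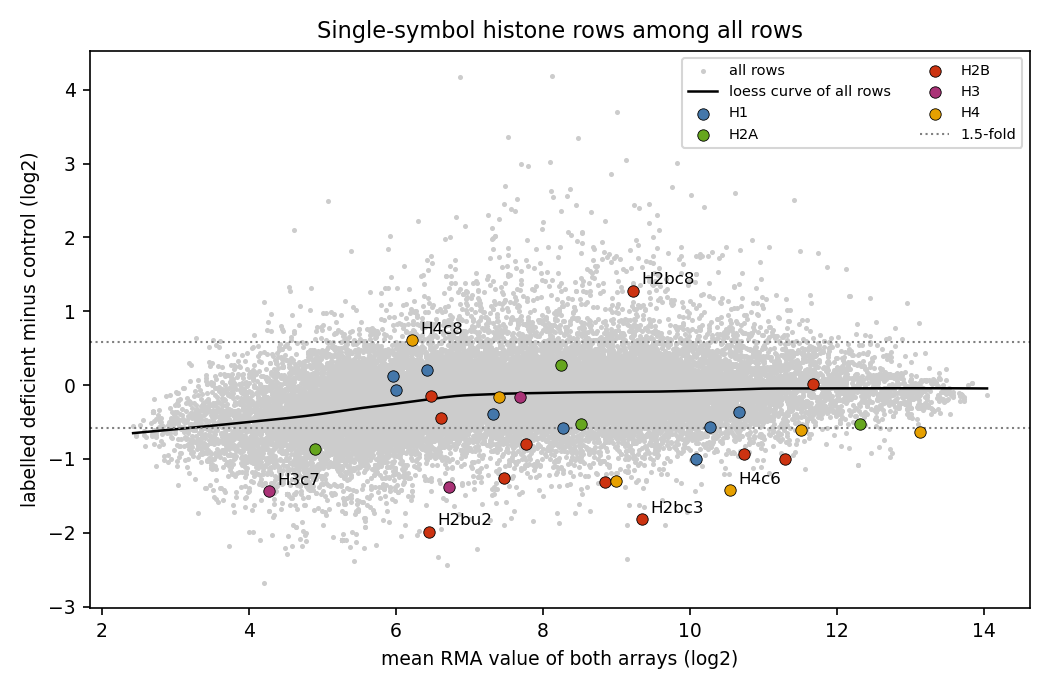
Difference (array labelled deficient minus control, log2) against the mean RMA value of both arrays (log2) for all 25917 rows (grey) and the 32 single-symbol histone rows (coloured by type), with the loess curve of all rows (black) and dotted lines at 1.5-fold. The curve falls below 0 for dim rows, and H2bc3 and H4c6 lie well below it at mean values above 9.

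Promoter sequences were matched for 27 of the 32 single-symbol genes. The octamer stood within 250 bases before to 50 after the start in 8 of these 27 (29.6%) and in 1.74% of all 32851 promoters of that table. It was found in 5 of 8 H2B and 3 of 4 H2A members, and in none of the 8 H1, 2 H3 and 5 H4 members. The windows of H2ac8 and H2bc8 overlap, so their octamer is the same site, counted for both genes. The same holds for H2ac1 and H2bc1, and CCAAT and TATA boxes in these overlaps are also counted for both genes. H2B members with the octamer ran from -1.81 (H2bc3) to 1.28 (H2bc8), and those without it were H2bu2 (-1.98), H2bc9 (-0.93) and H2bc22 (-0.45). The ranges overlapped, so the presence of these letters did not sort the H2B members by their difference. A CCAAT box was present in 81.5% of the 27 and in 37.4% of all promoters, and a TATA box in 59.3% and 13.6%. The bases shown for H2bc3 and H2bc8 both hold the octamer upstream of a TATA box, although the genes differed in opposite directions, and those for H4c6 hold none of the 3 motifs, although the longer window counted here has 1 TATA box at its far end.

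Variant and solitary histone genes had a median of -0.11, near that of all rows. Of the 11 with a single-symbol row (15 were listed), 2 were at least 1.5-fold lower (18.2%) and 1 was higher, beside 15.0% and 4.58% of all rows. H4f16, which lies outside the main clusters but encodes the common H4 protein and is no variant, read 10.04 in control and 8.76 in the array labelled deficient (-1.28). H2ax, the variant phosphorylated at DNA breaks, read 9.32 and 8.65 (-0.67). The variant H2az1 differed by -0.03 and the centromeric H3 gene Cenpa by -0.11 (genes picked with their values known). Macroh2a2, a variant of repressed chromatin, was highest at 0.78 (7.48 and 8.26), followed by Macroh2a1 at 0.24.

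Genes that make and process histone mRNA had a median of -0.12 over 16 of 17 listed, with 2 at least 1.5-fold lower and 0 higher. The lower count is 12.5% of the list, beside 15.0% of all rows. The share was 8.49% among all rows with a mean at or above the median of all values, where 15 of the 16 genes lay. After the loess curve the median was 0.01, and 1 gene was at least 1.5-fold lower, beside 6.64% of all rows. Npat, the co-activator of histone transcription at the start of S phase, read 9.13 and 8.38 (-0.75), and Slbp, which binds the stem-loop of histone mRNA, read 9.37 and 8.77 (-0.60). Other factors specific to histone genes, also picked with their values known, did not reach 1.5-fold: the transcription factor Hinfp differed by 0.26, Casp8ap2 by -0.05, the U7 subunit Lsm11 by -0.11 and Zfp473 by -0.15. Lsm10 (0.43), a subunit of the U7 particle that helps cleave histone mRNA, and the cap-binding Ncbp2 (0.44) were highest. Of 18 histone chaperones, 3 were at least 1.5-fold lower (16.7%) and 1 was higher (5.56%), with a median of -0.28. These shares were near those of all rows (15.0% and 4.58%). Of the 18, 17 had a mean at or above the median of all values, where 8.49% of all rows were lower and 6.46% higher. After the loess curve 2 were at least 1.5-fold lower, beside 6.64% of all rows. The lowest were Ubn1 (-0.77), of a chaperone complex of variant H3, and Mms22l (-0.77), which acts at stalled replication forks, and the third was Asf1b (-0.61), an H3-H4 chaperone of dividing cells. Daxx, a chaperone of variant H3 (0.61), and Nap1l4 (0.49) were highest.

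Among genes of the dividing cell, mitosis genes were more often lower than the table as a whole, and replication genes had a median below that of all rows. The 39 genes of DNA replication and S phase had a median of -0.43. Of them, 7 (17.9%) passed 1.5-fold on the lower side and 0 on the higher, beside 15.0% and 4.58% of all rows. Of the 39, 38 had a mean at or above the median of all values, where 8.49% of all rows were lower. After the loess curve 4 were at least 1.5-fold lower, beside 6.64% of all rows. Ccne2, a cyclin of S phase entry (-0.90), and the replication initiator Mcm10 (-0.77) were lowest, and the clamp loader subunit Rfc3 (0.44) and the primase subunit Prim1 (0.30) highest. The 20 mitosis genes had a median of -0.65, with 11 (55.0%) past 1.5-fold on the lower side and 0 on the higher. The spindle motor Kif11 (-1.28) and Nusap1 (-1.13) were lowest, and Aurkb (0.10) and Plk1 (-0.29) highest. The single-symbol histone median of -0.57 lay between these lists, and the spread of the histone rows, from -1.98 to 1.28, was wider than that of either.

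**Figure D4:**
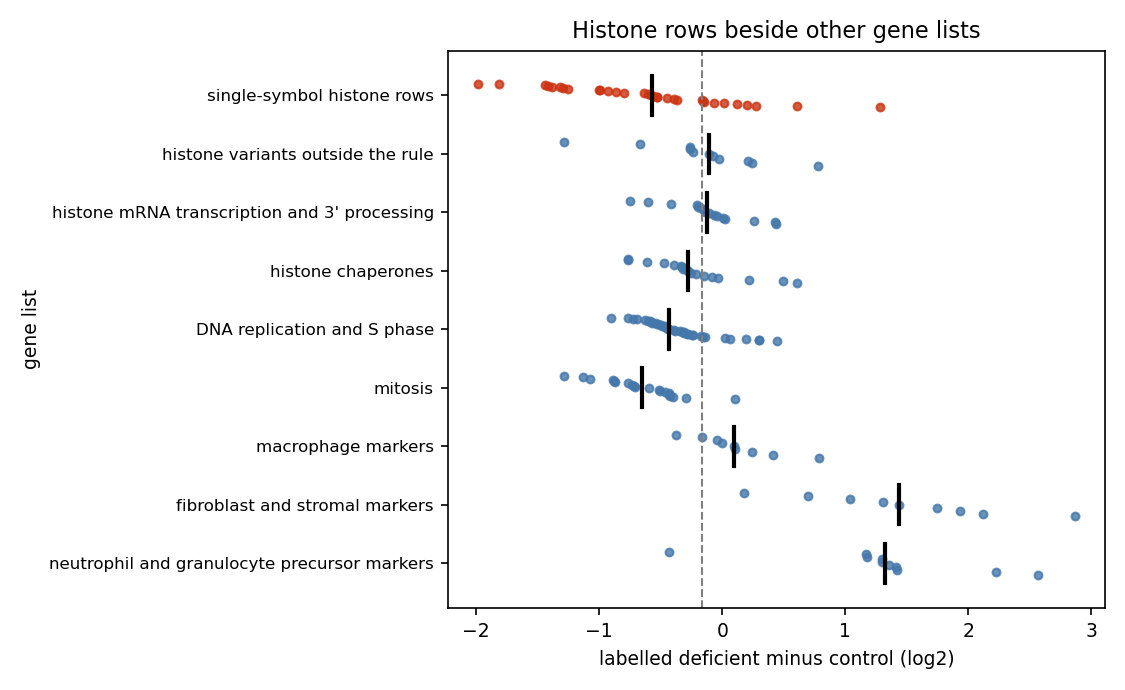
Differences (array labelled deficient minus control, log2) of the single-symbol histone rows (red) and of genes in 8 other lists (blue), with black bars at the medians and a dashed line at the median of all rows (-0.17). Histone, replication and mitosis medians lie between -0.65 and -0.43, and the stromal and neutrophil medians lie at 1.44 and 1.33.

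Markers of other cells moved in the same comparison. The macrophage markers were present in both arrays, with 9 of 9 above the median of all values in each and a median difference of 0.10, from Lyz2 (-0.38) to Fcgr1 (0.78). The fibroblast and stromal list had a median of 1.44, with 8 of its 9 measured markers past 1.5-fold on the higher side and 0 on the lower. Its log2 values summed to 69.8 in control and 83.1 in the array labelled deficient, which is not a total of signal. Cxcl12 (2.87) and Pdgfra (2.12) were highest, and Thy1 (0.18) and Col3a1 (0.69) lowest. The list of neutrophils and their precursors had a median of 1.33, with 9 of 10 past 1.5-fold on the higher side and 0 on the lower. Its summed log2 values were 83.0 and 96.5. Beside both lists, 4.58% of all rows were higher and 15.0% lower at that size. No marker of either list is at 0, since RMA gives every row a value. Of the stromal markers 3 lay below the median of all values in control and 1 in the array labelled deficient, and of the neutrophil markers 3 and 0. Retnlg (2.57) and Mpo (2.22) were highest, and Camp (-0.43) and Ngp (1.17) lowest. The part of these cells in the lower histone values was not tested, and fewer dividing cells cannot be told apart from less histone RNA per cell.

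Lists of mast cells and basophils (median 0.23, 3 of 8 at least 1.5-fold higher and 0 lower), erythroid cells and megakaryocytes (0.46, 3 of 7 higher and 1 lower), B cells (0.32, 2 of 7 higher and 0 lower) and T and NK cells (-0.53, 1 of 7 higher and 3 lower) went less uniformly. Of all rows, 4.58% were higher and 15.0% lower at that size. At the ends stood Prss34 (2.31), Cpa3 (1.98), Kit (-0.05) and Fcer1a (-0.45) for mast cells and basophils. The ends of the next list were the megakaryocyte markers Ppbp (2.51) and Gp9 (1.29) and the erythroid markers Epor (-0.22) and Klf1 (-0.77). For B cells these were Ms4a1 (1.08), Cd79a (0.82), Pax5 (-0.12) and Igll1 (-0.47), and for T and NK cells Nkg7 (1.09), Lat (0.56), Ncr1 (-0.79) and Cd3g (-1.14). Cd3g and Ncr1 lay below the median of all values in both arrays, as did Cd79a and Ms4a1.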

How the data were processed

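Per the submitters' processing notes, the deposited log2 values were made by the authors with RMA, which subtracts background, puts arrays on 1 distribution and joins a row's probes into 1 value. No version, build or setting is given in the sources used here, and the columns' medians differ, so a further scaling step cannot be told from the files. Symbols came from GEO's platform annotation, which named 1 gene for 21624 rows, several for 1568 and none for 2725. All 32 single-symbol members had the same symbol in RefSeq (GRCm38.p6). RMA values carry no detection call.

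Both columns were subtracted without a filter, and rows were counted at 1.5-fold, with the same count over all 25917 rows. With 1 array per group no p-value or error was computed, and the number of arrays limits the precision. For gene lists, the row with the highest mean was used per gene. Alternatives were filters on low values, centring, quantile normalization, a loess curve (statsmodels 0.14.6, span 0.3), 2-fold and other member sets. Scripts ran in Python 3.11.15 and were tested on simulated data. Any single-symbol member could be named, with both values for those at least 1.5-fold apart and the highest and lowest of each type. Of each other list the 2 highest and 2 lowest genes were named, and Ctnnb1 as the check of the label. H2az1, Cenpa, Asf1b, Hinfp, Casp8ap2, Lsm11, Zfp473 and H2aw were chosen after their values were seen. Members and lists were chosen with earlier results of these data known.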

Additional observations from a re-analysis of the deposited data

How the results depend on the processing

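No replicate spread exists, so a median was taken as moved at a change of 0.1 or more on the log2 scale and a count at more than 1.5 times. Of 67 recomputed values, 49 did not move, 18 did and 0 changed sign. Centring took the median over all rows off each difference, which left medians of -0.40 for the single-symbol rows, -0.21 for H1, -0.36 for H2A, -0.76 for H2B, -1.21 for H3, -0.45 for H4 and -0.047 for the multi-symbol rows. The H3 median was -0.95 under quantile normalization and -0.97 under the loess curve. Rows with a mean at or above the median of all values gave -0.56 for H1, -0.16 for H3 (1 row left) and 1 row at least 1.5-fold higher. A filter on the higher value gave -0.56, -0.77 (2 rows) and 1. At 2-fold, 9 rows were lower and 1 higher. Single-symbol and multi-symbol rows together had a median of -0.39. No gene had more than 1 single-symbol row, so the values for 1 row per gene could not move and are among the 49. Counts were compared as such, also where a filter left fewer rows. H1f0 had no single-symbol row, so leaving out H1f0 and H1f10 removed H1f10 alone. Low signal limits the 8 single-symbol rows that lay below the median of all values in both arrays. These were H3c7, H2ac8, H4c8, H1f3, H1f6, H1f8, H2bc21 and H2bc22. No paired analysis was possible because each group has 1 array.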

Other observations

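The Hist3 cluster also holds H2aw, an H2A gene with the older name Hist3h2a that the symbol rule does not take and that was looked up after its value was seen. It read 11.88 in control and 10.98 in the array labelled deficient, a difference of -0.90. The 2 Hist3 members, H2bu2 (-1.98) and H2bu1-ps (-0.80), were also at least 1.5-fold lower, as were 15.0% of all rows. Since H2aw was picked with its value known, it does not add to their count. The level of H2aw in both arrays was above the median of all values, unlike that of H2bu2.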
